A study of Mus musculus with 8 samples.

Results

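The 8 BCL2 family genes Bcl2, Bcl2l1, Mcl1, Bcl2a1b, Bcl2a1d, Bcl2l11, Bax and Bak1 were followed in CD8 T cells from mouse tumours, by the cells' Pdcd1 state, by the size of their T cell clone and by the mice's treatment. The members were chosen by symbol, and all 8 were among the 30406 genes present in the 4 gene expression matrices. They were read in the barcodes with at least 1 UMI (unique molecular identifier, 1 captured RNA molecule) of Cd8a or Cd8b1 and at least 1 of Cd3d, Cd3e or Cd3g. These CD8 T barcodes numbered 5622 of 6361 after rhIL-7-hyFc 10 mg/kg and 3975 of 5589 after buffer in the first experiment. In the second they numbered 10933 of 11501 after the combination and 10888 of 12560 after rhIL-7-hyFc 1.25 mg/kg.

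The study treated wild-type C57BL/6 mice that carried palpable tumours of MC38, a mouse colon carcinoma line, with rhIL-7-hyFc, a long-acting recombinant human interleukin-7 fused to a hybrid Fc, and sequenced the CD8 T cells of the tumours with 10x Chromium 5′ RNA and T cell receptor libraries. Experiment 1 set rhIL-7-hyFc, given subcutaneously at 10 mg/kg, against buffer, and CD8 cells were taken from tumours 7 days later by magnetic positive selection. Experiment 2 gave all mice rhIL-7-hyFc at 1.25 mg/kg, with or without TCE, an intravenous T cell engager that binds mouse PD-L1 and CD3ε and was begun 3 days after it; the schedule is worded ambiguously in the labels. Tumours were taken 24 h after the last treatment and CD45+ TCRb+ CD8a+ cells were sorted by flow cytometry. Each group is 1 RNA library with its receptor library, and the labels do not give how many mice were pooled in it. All 4 groups share the tumour line, the strain and the CD8 selection, and no group was free of tumour. Levels are not compared between the experiments, which had different doses, harvest times, isolation methods, versions of Cell Ranger and numbers of genes counted.

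BCL2 family proteins set whether mitochondria release the factors that start apoptosis. The anti-apoptotic members BCL2, BCL-XL (Bcl2l1), MCL1 and A1 (the Bcl2a1 copies) bind and restrain the pore-forming effectors BAX and BAK (Bak1), and BH3-only proteins such as BIM (Bcl2l11) bind the anti-apoptotic members and release the effectors. In T cells, interleukin-7 is known to sustain BCL2, A1 is known as a target of antigen receptor signalling, and BIM is known for the death of T cells after an immune response. PD-1, the product of Pdcd1, is induced by antigen receptor signalling and stays on chronically stimulated cells, and a clone, here the cells that share 1 receptor clonotype, grows by division of 1 founder.

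The genes lie on 6 mouse chromosomes in the GENCODE annotation of GRCm38. Bcl2 is at chr1:106538178-106714274 on the minus strand, Mcl1 at chr3:95658788-95663176 on the plus strand, Bax at chr7:45461697-45466898 on the minus strand and Bak1 at chr17:27019810-27029009 on the minus strand. Bcl2l11, at chr2:128126038-128162547 on the plus strand, and Bcl2l1, at chr2:152780668-152831728 on the minus strand, share chromosome 2. The A1 copies stand in 1 stretch of chromosome 9, Bcl2a1d at chr9:88723285-88731914 on the minus strand and Bcl2a1b at chr9:89199209-89207827 on the plus strand, with a further copy, Bcl2a1a, between them at chr9:88956900-88962419.

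The promoters of the 4 members whose levels separated the Pdcd1 states are shown, since these genes moved in opposite directions. Each is the RefSeq window on GRCm38.p6 from 250 bases before to 50 after a transcription start, written 5′ to 3′ on the gene's own strand, and the capitals mark the motif match found by letter search on both strands. The Bcl2 window (chr1:106714241-106714540, minus strand) holds TGACGT, the core of a cyclic-AMP response element, 107 bases before the start. The Bcl2l11 window (chr2:128125788-128126087, plus strand) holds the forkhead core GTAAACA 227 bases before the start. The Bcl2a1b window (chr9:89199023-89199322, plus strand) and the Bcl2a1d window (chr9:88731801-88732100, minus strand) both hold the AP-1 match TGAATCA, 164 and 114 bases before their starts.
Bcl2: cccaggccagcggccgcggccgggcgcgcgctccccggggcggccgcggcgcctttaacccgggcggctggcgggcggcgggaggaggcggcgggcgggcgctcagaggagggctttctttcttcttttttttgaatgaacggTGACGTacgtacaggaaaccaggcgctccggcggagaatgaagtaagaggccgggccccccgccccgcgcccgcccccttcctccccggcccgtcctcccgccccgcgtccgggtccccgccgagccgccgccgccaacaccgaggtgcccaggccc
Bcl2l11: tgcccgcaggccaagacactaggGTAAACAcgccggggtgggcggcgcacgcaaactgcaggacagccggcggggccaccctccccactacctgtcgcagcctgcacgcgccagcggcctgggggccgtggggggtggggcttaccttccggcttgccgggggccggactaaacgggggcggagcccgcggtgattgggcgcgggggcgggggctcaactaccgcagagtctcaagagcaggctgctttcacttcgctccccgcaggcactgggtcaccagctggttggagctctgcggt
Bcl2a1b: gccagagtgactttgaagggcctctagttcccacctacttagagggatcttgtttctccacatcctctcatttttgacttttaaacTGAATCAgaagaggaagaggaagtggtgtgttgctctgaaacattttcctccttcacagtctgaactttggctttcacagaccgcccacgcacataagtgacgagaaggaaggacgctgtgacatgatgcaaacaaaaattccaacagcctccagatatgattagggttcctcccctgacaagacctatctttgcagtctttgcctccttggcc
Bcl2a1d: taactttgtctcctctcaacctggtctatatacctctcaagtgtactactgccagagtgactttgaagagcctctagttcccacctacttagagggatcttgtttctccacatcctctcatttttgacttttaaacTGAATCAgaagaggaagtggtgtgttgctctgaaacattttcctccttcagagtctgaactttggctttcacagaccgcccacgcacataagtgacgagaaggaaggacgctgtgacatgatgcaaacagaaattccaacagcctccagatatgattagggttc

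Over all 32851 promoter windows of the table, the AP-1 motif TGANTCA stood in 7.81%, the core TGACGT in 7.51%, the forkhead core GTAAACA in 3.65%, the STAT5 motif TTCNNNGAA in 8.30% and an NF-kB motif in 4.51%. The 8 members have 11 windows among them. No member window held the STAT5 letters, and 1 of the 3 Bcl2l1 windows held an NF-kB match. A match is a run of letters in this window only. The Bcl2a1b and Bcl2a1d windows were 96.5% identical over 256 aligned bases.

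The A1 copies are also near-identical as transcripts, which bears on every value given for them. The Bcl2a1b and Bcl2a1d transcripts, of 817 and 863 bases, were 99.1% identical over 817 aligned bases. Of the 90-base windows of Bcl2a1d, 61.6% occurred letter for letter in another copy, against 36.1% of those of Bcl2a1b and 47.0% of those of Bcl2a1a. Reads from these shared stretches cannot be assigned to 1 copy, so the level of each copy is uncertain and depends on the aligner, and the 3 copies are also given as a sum.

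The CD8 T barcodes held 41144471 to 109627615 UMIs per library, with a median of 6700 to 9726 UMIs per barcode. CD8 genes summed to 1689 to 2275 CPM (a gene's UMIs as a share of all UMIs of the same barcodes, scaled to a common total) and T cell genes to 4018 to 4783 CPM, and CD4 markers to 2.41 to 6.16 CPM. CD8 and CD3 UMIs chose the barcodes, so the CD8 and T cell sums are a description of the gate. The 8 macrophage markers summed to 229 CPM after rhIL-7-hyFc 10 mg/kg and 846 CPM after buffer, and to 703 CPM after the combination and 2835 CPM after rhIL-7-hyFc 1.25 mg/kg. At least 2 such UMIs were seen in 5.85%, 28.7%, 8.58% and 37.3% of the CD8 T barcodes of the same libraries. This limit is a fixed number of UMIs in barcodes that were not thinned, so a deeper barcode reaches it more readily. Of the Bcl2a1b UMIs, for example, 1845 of 2128, 2261 of 3212, 19489 of 24756 and 8427 of 24628 stayed when these barcodes were left out. Dendritic cell markers were at 9.33 CPM after rhIL-7-hyFc 10 mg/kg and 230 CPM after buffer. In the buffer library their CPM was higher in barcodes without Pdcd1 than in those with it. The part of such RNA in the results was not tested beyond the values given without these barcodes. Pairs of libraries shared 45 to 195 barcodes, and 0 of those with a receptor β chain in both libraries had the same sequence in each.

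Pdcd1-positive barcodes, those with at least 1 Pdcd1 UMI, carried less Bcl2 and Bcl2l11 and more of both A1 copies than barcodes with no Pdcd1 UMI. They made up 17.4% of CD8 T barcodes after rhIL-7-hyFc 10 mg/kg, 67.1% after buffer, 64.1% after the combination and 58.8% after rhIL-7-hyFc 1.25 mg/kg. UMIs were summed per library and state, which gave 4 pairs of sums, and tested with edgeR's quasi-likelihood test, the library as a block, and Benjamini-Hochberg adjustment over 12437 genes. Of the 8 members, 2 were higher and 2 lower in Pdcd1-positive barcodes at an adjusted p under 0.05, where 8.70% of all genes were called higher and 9.88% lower. The p-values are set against the spread of the within-library differences over 4 libraries. These libraries also differ in treatment and experiment, and no label says that they come from separate animals.

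Among the anti-apoptotic members, Bcl2 was lower in Pdcd1-positive barcodes of every library. In Pdcd1-positive barcodes it stood at 131 CPM after rhIL-7-hyFc 10 mg/kg, 118 CPM after buffer, 105 CPM after the combination and 84.0 CPM after rhIL-7-hyFc 1.25 mg/kg. In Pdcd1-negative barcodes it stood at 237 CPM after rhIL-7-hyFc 10 mg/kg, 232 CPM after buffer, 210 CPM after the combination and 197 CPM after rhIL-7-hyFc 1.25 mg/kg. Within each experiment the states did not overlap, but the share of all genes for which this held was not computed. Bcl2 was 1.81- to 2.34-fold lower within libraries, and the fitted difference was -1.08 on the log2 scale (SE 0.08, adjusted p = 0.00462). It was called in all 14 alternatives run, with adjusted p up to 0.044.

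Both A1 copies, which encode the A1 protein induced in activated lymphocytes, moved the other way. Bcl2a1d stood at 85.6, 86.5, 79.0 and 64.1 CPM in the Pdcd1-positive barcodes of the rhIL-7-hyFc 10 mg/kg, buffer, combination and rhIL-7-hyFc 1.25 mg/kg libraries. In their Pdcd1-negative barcodes it stood at 7.65, 57.7, 20.8 and 17.9 CPM. It was thus 11.2-fold higher after rhIL-7-hyFc 10 mg/kg, 1.498-fold after buffer, 3.79-fold after the combination and 3.57-fold after rhIL-7-hyFc 1.25 mg/kg, and the buffer library stood apart through its high Pdcd1-negative level. The fitted log2 difference was 1.89 (SE 0.43, adjusted p = 0.04).

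Bcl2a1b had the same direction in all 4 libraries. It stood at 90.1, 82.4, 329 and 265 CPM in the Pdcd1-positive barcodes of the rhIL-7-hyFc 10 mg/kg, buffer, combination and rhIL-7-hyFc 1.25 mg/kg libraries. In Pdcd1-negative barcodes it stood at 17.3, 63.1, 135 and 106 CPM, and the folds were 5.22, 1.31, 2.43 and 2.50. Its fitted log2 difference was 1.28 (SE 0.28, adjusted p = 0.0361). Summed over Bcl2a1a, Bcl2a1b and Bcl2a1d, the copies reached 178 and 26.3 CPM in Pdcd1-positive and Pdcd1-negative barcodes after rhIL-7-hyFc 10 mg/kg, 174 and 148 CPM after buffer, 414 and 157 CPM after the combination, and 345 and 132 CPM after rhIL-7-hyFc 1.25 mg/kg. The sum kept the direction of Bcl2a1b and Bcl2a1d in each library. Bcl2a1a by itself went the other way after buffer, at 4.7 CPM in Pdcd1-positive and 26.8 CPM in Pdcd1-negative barcodes.

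In the buffer library, the Pdcd1-negative barcodes also carried 2613 CPM of macrophage RNA and 523 CPM of dendritic markers, against 333 and 145 CPM in the Pdcd1-positive barcodes. Barcodes with markers of other cells were defined as those with at least 2 macrophage UMIs, or any UMI of dendritic, neutrophil or B cell markers or Cd4. Barcodes with fewer macrophage UMIs stayed in, and NK cell and tumour or stroma markers were not screened. With the barcodes so defined taken out, Bcl2a1d stood at 83.0 CPM in Pdcd1-positive and 32.7 CPM in Pdcd1-negative barcodes of the buffer library (2.54-fold higher). Bcl2a1b stood at 81.4 and 43.8 CPM there (1.86-fold higher). The buffer ratios remained the lowest of the 4 libraries for both genes. The fitted log2 difference was then 2.41 for Bcl2a1d (adjusted p = 0.00167) and 1.52 for Bcl2a1b (adjusted p = 0.00142), in a fit that called 22.5% of all genes higher and 23.0% lower.

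Bcl2l1, which encodes BCL-XL, did not pass the test. It stood at 54.4 CPM in Pdcd1-positive and 31.3 CPM in Pdcd1-negative barcodes after rhIL-7-hyFc 10 mg/kg, at 30.3 and 26.5 CPM after the combination and at 41.0 and 28.0 CPM after rhIL-7-hyFc 1.25 mg/kg. After buffer it stood at 46.6 CPM in Pdcd1-positive and 48.8 CPM in Pdcd1-negative barcodes, so the buffer library went the other way. The fitted log2 difference was 0.31 (SE 0.13, adjusted p = 0.144). Without barcodes with macrophage RNA, Bcl2l1 was higher in Pdcd1-positive barcodes of all 4 libraries, by 1.14- to 1.81-fold, and passed the test at a log2 difference of 0.41 (adjusted p = 0.0303).

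Mcl1, whose short-lived product most lymphocytes depend on, also gave different results with and without barcodes with macrophage RNA. With all CD8 T barcodes, Mcl1 stood at 106 CPM in Pdcd1-positive and 131 CPM in Pdcd1-negative barcodes after rhIL-7-hyFc 10 mg/kg, 97.5 and 173 CPM after buffer, 428 and 429 CPM after the combination and 594 and 567 CPM after rhIL-7-hyFc 1.25 mg/kg. The fitted log2 difference was -0.33 (SE 0.16, adjusted p = 0.198). Without barcodes with macrophage RNA, Mcl1 stood at 98.1 and 126 CPM, 89.7 and 124 CPM, 374 and 416 CPM, and 347 and 452 CPM in the Pdcd1-positive and Pdcd1-negative barcodes of the same libraries. It was then lower in Pdcd1-positive barcodes of all 4, by 1.11- to 1.38-fold, and passed the test at a log2 difference of -0.43 (SE 0.08, adjusted p = 0.0119). In that fit 16.2% of all genes were called higher and 18.1% lower, and 6 of the 8 members passed.

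Bcl2l11, the BH3-only member, was lower in Pdcd1-positive barcodes together with Bcl2, the protein that BIM binds. In Pdcd1-positive barcodes it stood at 95.04 CPM after rhIL-7-hyFc 10 mg/kg, 73.4 CPM after buffer, 127 CPM after the combination and 110 CPM after rhIL-7-hyFc 1.25 mg/kg. In Pdcd1-negative barcodes it stood at 137 CPM after rhIL-7-hyFc 10 mg/kg, 108 CPM after buffer, 208 CPM after the combination and 186 CPM after rhIL-7-hyFc 1.25 mg/kg. Within every library the Pdcd1-positive level was below the Pdcd1-negative one, by 1.44- to 1.69-fold. The fitted log2 difference was -0.70 (SE 0.08, adjusted p = 0.00983).

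Bcl2 fell further than Bcl2l11 between the states in each library, so the ratio of their UMIs was lower in Pdcd1-positive barcodes. There were 1.38 Bcl2 UMIs per Bcl2l11 UMI in Pdcd1-positive and 1.73 in Pdcd1-negative barcodes after rhIL-7-hyFc 10 mg/kg, and 1.60 and 2.16 after buffer. The ratio was 0.828 and 1.01 after the combination and 0.762 and 1.05 after rhIL-7-hyFc 1.25 mg/kg. This difference of differences was not tested. Since the genes differ in length and capture, a ratio of UMIs is compared only within an experiment and is no ratio of proteins.

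The effectors that form the mitochondrial pore did not pass the test in either direction. Bax stood at 173 to 230 CPM in Pdcd1-positive and 149 to 189 CPM in Pdcd1-negative barcodes, with a log2 difference of 0.11 (SE 0.08, adjusted p = 0.381). Bak1 stood at 79.2 to 109 CPM in Pdcd1-positive and 64.7 to 94.5 CPM in Pdcd1-negative barcodes, with a log2 difference of 0.17 (SE 0.09, adjusted p = 0.237). Each was higher in Pdcd1-positive barcodes of 3 of the 4 libraries, and a p that misses the threshold does not show equal levels.

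**Figure D1:**
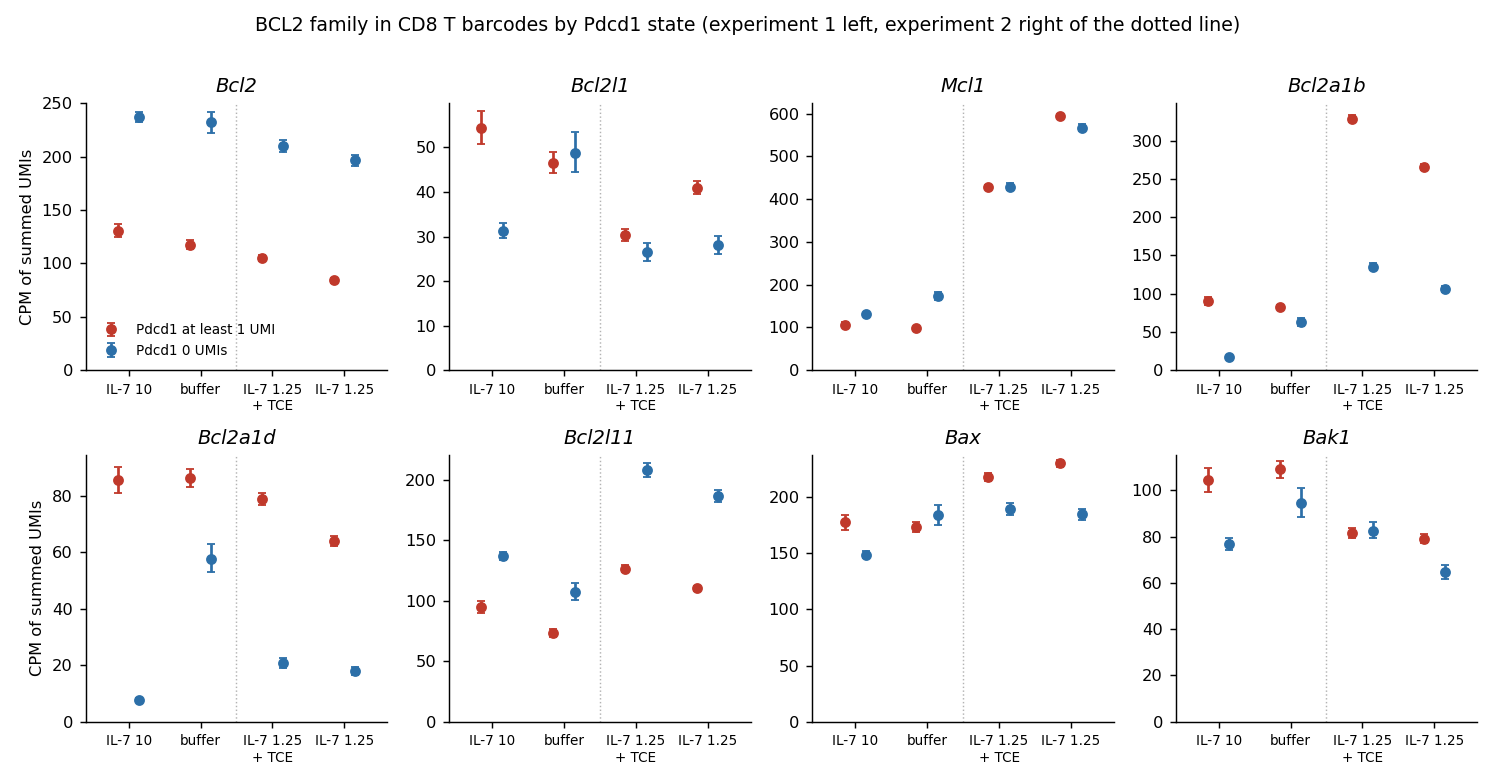
Level of each member in CPM (y axis, linear from 0) in Pdcd1-positive (red) and Pdcd1-negative (blue) CD8 T barcodes of each library (x axis, experiment 1 at left, experiment 2 at right). Points are sums over the barcodes of 1 library and bars are exact 95% Poisson intervals, which cover counting error only. Bcl2 and Bcl2l11 are lower in red in every library, by 1.81- to 2.34-fold and 1.44- to 1.69-fold, and both A1 copies are higher in red in every library.

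Which libraries were included decided part of the calls by Pdcd1 state. Without the rhIL-7-hyFc 10 mg/kg library the log2 difference of Bcl2a1b was 0.99 and that of Bcl2a1d 1.44, neither past the threshold (adjusted p = 0.0896 and 0.0879), and Bcl2l11 was at an adjusted p of 0.0604. Without the rhIL-7-hyFc 1.25 mg/kg library the adjusted p was 0.145 for Bcl2a1b, 0.15 for Bcl2a1d and 0.0708 for Bcl2l11. Without the combination library it was 0.1 for Bcl2a1b and 0.112 for Bcl2a1d. Without the buffer library 5 members passed, Bcl2l1 among them at an adjusted p of 0.0465, where 1691 of 12671 genes were called higher and 1744 lower. Directions of these 4 genes were the same in each of these fits, each of which had 3 libraries.

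Depth differed between the states, and a barcode with more UMIs is more likely to show one of Pdcd1. Pdcd1-positive barcodes had a median of 13173 UMIs after rhIL-7-hyFc 10 mg/kg, 10300 after buffer, 7190.5 after the combination and 10492.5 after rhIL-7-hyFc 1.25 mg/kg. Pdcd1-negative barcodes had a median of 9382 UMIs after rhIL-7-hyFc 10 mg/kg, 6027.5 after buffer, 6068 after the combination and 5135 after rhIL-7-hyFc 1.25 mg/kg. With the state read from barcodes thinned to 3000 UMIs each, Bcl2 (log2 difference -0.84, adjusted p = 0.0163) and Bcl2l11 (-0.53, 0.0297) passed the test. Bcl2a1b (0.91, 0.0974) and Bcl2a1d (1.14, 0.107) did not.

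Thinned to that depth, the share of barcodes with a Bcl2 UMI was lower in the Pdcd1-positive state of each library. After rhIL-7-hyFc 10 mg/kg a Bcl2 UMI was found in 35.1% of Pdcd1-positive barcodes (exact 95% binomial interval 32.1 to 38.3%) and 48.5% of Pdcd1-negative ones (47.0 to 49.98%). After buffer the shares were 29.2% (27.4 to 31.1%) and 46.6% (43.4 to 49.9%), after the combination 26.7% (25.7 to 27.8%) and 44.3% (42.6 to 45.9%), and after rhIL-7-hyFc 1.25 mg/kg 22.6% (21.6 to 23.7%) and 43.8% (42.3 to 45.3%). At full depth the buffer library showed the opposite order, 58.0% of Pdcd1-positive and 55.7% of Pdcd1-negative barcodes, which had the unequal median depths given above. Barcodes under 3000 UMIs were left out, 187 after rhIL-7-hyFc 10 mg/kg, 692 after buffer, 424 after the combination and 575 after rhIL-7-hyFc 1.25 mg/kg.

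Barcodes of another cell type gave the background for these shares. Barcodes with no CD3 UMI and at least 5 macrophage UMIs, of which there were 69 to 760 per library with a median of 5537 to 13290 UMIs, showed a thinned Bcl2 UMI in 1.61 to 3.15%. Their Bcl2 level was 6.70 to 9.20 CPM, far under that of either Pdcd1 state. The A1 copies, in contrast, were not specific to T cells, since these macrophage barcodes held 39.1 to 107 CPM of Bcl2a1d and 121 to 167 CPM of Bcl2a1b. They also held 428 to 1463 CPM of Mcl1, above the Mcl1 level of the CD8 T barcodes of the same library in all 4 libraries.

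A thinned Bcl2a1d UMI was found in 19.6% (17.1 to 22.2%) of Pdcd1-positive and 1.54% (1.20 to 1.94%) of Pdcd1-negative barcodes after rhIL-7-hyFc 10 mg/kg, against 27.6% of the macrophage barcodes. After buffer the shares were 20.2% (18.6 to 21.9%) and 13.0% (11.0 to 15.4%), beside 14.4% of macrophage barcodes. They were 18.6% (17.7 to 19.6%) and 4.84% (4.17 to 5.58%) after the combination, and 16.3% (15.3 to 17.2%) and 3.49% (2.95 to 4.10%) after rhIL-7-hyFc 1.25 mg/kg, beside 12.9% and 10.2% of macrophage barcodes. Macrophages are known to express A1, so these barcodes are no background for the gene, and the Pdcd1-negative barcodes of the rhIL-7-hyFc 10 mg/kg library give the lowest share seen.

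The members that separated the states did so mostly between 0 and 1 Pdcd1 UMI. Barcodes were classed by the Pdcd1 UMIs left after thinning to 3000 UMIs, while the levels were taken from all their UMIs, not thinned. Those with 0, 1, 2 and at least 3 Pdcd1 UMIs held 227, 128, 122 and 126 CPM of Bcl2 after rhIL-7-hyFc 10 mg/kg. After buffer they held 175, 115, 103 and 111 CPM. After the combination they held 172, 105, 105 and 103 CPM, and after rhIL-7-hyFc 1.25 mg/kg they held 146, 80.7, 84.5 and 84.0 CPM. Beyond the first Pdcd1 UMI, Bcl2 showed no further order in these libraries.

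Bcl2a1d took 13.4, 76.5, 82.8 and 108 CPM at 0, 1, 2 and at least 3 Pdcd1 UMIs after rhIL-7-hyFc 10 mg/kg, and 37.4, 73.2, 83.4 and 85.7 CPM after the combination. After buffer it took 72.4, 83.1, 89.2 and 88.0 CPM, and after rhIL-7-hyFc 1.25 mg/kg 36.5, 64.9, 63.6 and 67.6 CPM. In every library the level at 0 Pdcd1 UMIs was the lowest. When barcodes with macrophage RNA were left out, the level at 0 Pdcd1 UMIs was 11.0, 69.6, 31.0 and 18.4 CPM after rhIL-7-hyFc 10 mg/kg, buffer, the combination and rhIL-7-hyFc 1.25 mg/kg, again the lowest of the library in each. Bcl2l11 took 132, 101, 96.8 and 88.6 CPM after rhIL-7-hyFc 10 mg/kg and 87.4, 74.5, 68.0 and 66.9 CPM after buffer. After the combination it took 180.5, 139, 122 and 117 CPM, and after rhIL-7-hyFc 1.25 mg/kg 153, 109, 110.1 and 108 CPM. The level at 0 Pdcd1 UMIs was the highest in every library, with and without barcodes with macrophage RNA, and the steps above 1 UMI were not all downward.

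**Figure D2:**
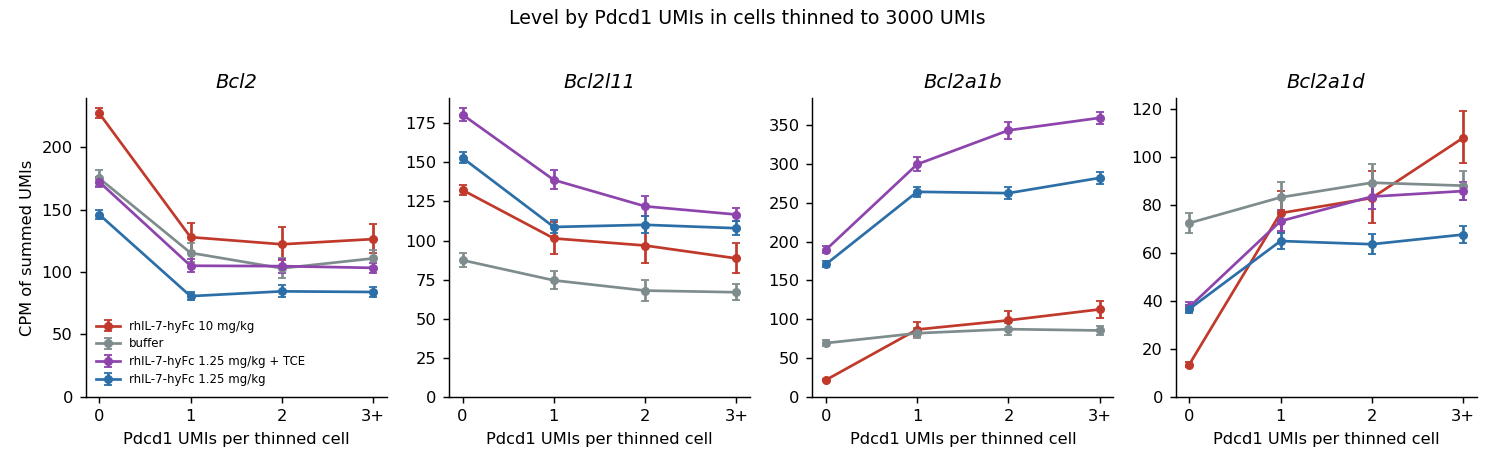
Levels of Bcl2, Bcl2l11, Bcl2a1b and Bcl2a1d in CPM (y axis) in CD8 T barcodes, by the number of Pdcd1 UMIs left after thinning the barcode to 3000 UMIs (x axis, 0, 1, 2, and 3 or more), with 1 line per library and bars for exact 95% Poisson intervals. Only the Pdcd1 class was thinned, and the levels use all UMIs of the barcodes. Bcl2 drops at the first Pdcd1 UMI and is then level, for example 227, 128, 122 and 126 CPM after rhIL-7-hyFc 10 mg/kg.

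Clone size divided the members the same way. A clone here is a receptor clonotype as called in the deposited receptor tables, with its size counted in the CD8 T barcodes of the same library; 5359 barcodes had a clonotype after rhIL-7-hyFc 10 mg/kg, 2928 after buffer, 8255 after the combination and 7124 after rhIL-7-hyFc 1.25 mg/kg. Clones of at least 5 cells held 368, 1527, 3536 and 2635 of those barcodes, and clonotypes seen once held 4788, 1108, 4149 and 4019. In the same edgeR test, with 11972 genes tested and 4 libraries, 3 of the 8 members were higher and 2 lower in clones of at least 5 cells, where 18.9% of all genes were called higher and 19.9% lower.

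Bcl2 was lower in large clones of every library. It stood at 108 CPM in clones of at least 5 cells after rhIL-7-hyFc 10 mg/kg, 92.8 CPM after buffer, 93.0 CPM after the combination and 71.1 CPM after rhIL-7-hyFc 1.25 mg/kg. In clonotypes seen once it stood at 230 CPM after rhIL-7-hyFc 10 mg/kg, 271 CPM after buffer, 193 CPM after the combination and 185 CPM after rhIL-7-hyFc 1.25 mg/kg. Bcl2 was lower by 2.07- to 2.93-fold within libraries and by 1.37 on the fitted log2 scale (log2 difference -1.37, SE 0.09, adjusted p = 0.000586). Clones of 2 to 4 cells held 117, 126, 122 and 106 CPM in the same libraries, between the other classes in each.

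Bcl2l11 was also lower in large clones, and more so than by Pdcd1 state. It stood at 78.5, 63.3, 101 and 98.7 CPM in clones of at least 5 cells of the rhIL-7-hyFc 10 mg/kg, buffer, combination and rhIL-7-hyFc 1.25 mg/kg libraries. In clonotypes seen once it stood at 136, 118, 206 and 178 CPM. The log2 difference was -0.99 (SE 0.06, adjusted p = 0.000519), beside -0.70 by Pdcd1 state; the difference between these 2 values was not tested. Bcl2 and Bcl2l11 were called in all 15 alternatives run for clone size.

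The A1 copies were higher in large clones. Bcl2a1d stood at 107, 92.5, 87.5 and 70.5 CPM in clones of at least 5 cells of the rhIL-7-hyFc 10 mg/kg, buffer, combination and rhIL-7-hyFc 1.25 mg/kg libraries, against 12.1, 38.6, 28.0 and 22.9 CPM in clonotypes seen once. Bcl2a1b stood at 95.4, 86.5, 359 and 291 CPM in large clones, against 22.3, 43.1, 164 and 127 CPM in clonotypes seen once. Their log2 differences were 1.80 (SE 0.27, adjusted p = 0.00422) for Bcl2a1d and 1.25 (SE 0.16, adjusted p = 0.00233) for Bcl2a1b. Macrophage RNA was 278 and 147 CPM in large clones and clonotypes seen once after rhIL-7-hyFc 10 mg/kg, 236 and 329 CPM after buffer, 430 and 211 CPM after the combination, and 2327 and 1904 CPM after rhIL-7-hyFc 1.25 mg/kg. Without barcodes with macrophage RNA the log2 differences were 2.04 for Bcl2a1d and 1.39 for Bcl2a1b.

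Bcl2l1 passed this test. It stood at 64.2 CPM in clones of at least 5 cells and 32.7 CPM in clonotypes seen once after rhIL-7-hyFc 10 mg/kg, 48.1 and 34.5 CPM after buffer, 30.9 and 27.8 CPM after the combination, and 42.6 and 28.4 CPM after rhIL-7-hyFc 1.25 mg/kg. The log2 difference was 0.45 (SE 0.11, adjusted p = 0.0229), and it missed the threshold without the buffer library (0.0596) and without the rhIL-7-hyFc 1.25 mg/kg library (0.0905). Mcl1 stood at 97.4, 92.0, 391 and 537 CPM in large clones and at 128, 106, 424 and 560 CPM in clonotypes seen once, lower in each library, but missed the threshold at a log2 difference of -0.29 (SE 0.09, adjusted p = 0.0526). Without barcodes with macrophage RNA it passed at -0.45 (adjusted p = 0.0104), where 20.6% of genes were called higher and 21.4% lower. Bax (log2 difference 0.07, adjusted p = 0.372) and Bak1 (0.24, adjusted p = 0.154) did not pass.

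Pdcd1 state and clone size overlap as classes. Among barcodes of clones of at least 5 cells, 94.7 to 96.7% had a Pdcd1 UMI, against 7.83% of clonotypes seen once after rhIL-7-hyFc 10 mg/kg, 44.2% after buffer, 30.0% after the combination and 18.0% after rhIL-7-hyFc 1.25 mg/kg. Each was therefore also tested with the other held fixed, comparisons that were added after the first results were seen.

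Among Pdcd1-positive barcodes alone, clone size still separated the members. Bcl2 stood at 108, 90.2, 92.0 and 71.2 CPM in Pdcd1-positive barcodes of large clones of the rhIL-7-hyFc 10 mg/kg, buffer, combination and rhIL-7-hyFc 1.25 mg/kg libraries, against 158, 209, 142 and 112 CPM in Pdcd1-positive barcodes of clonotypes seen once. Bcl2a1d stood at 108, 92.9, 88.1 and 70.4 CPM in the large clones, against 57.5, 56.1, 47.9 and 53.1 CPM in those seen once. Of the 8 members, 2 were higher and 3 lower, where 9.91% of 10773 genes were called higher and 10.2% lower. The log2 difference was -0.78 for Bcl2 (SE 0.11, adjusted p = 0.00208), -0.71 for Bcl2l11 (SE 0.08, adjusted p = 0.000961), -0.18 for Mcl1 (SE 0.05, adjusted p = 0.0412), 0.44 for Bcl2a1b (SE 0.07, adjusted p = 0.00459) and 0.71 for Bcl2a1d (SE 0.08, adjusted p = 0.00122).

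Among clonotypes seen once, Pdcd1 state also separated them. Bcl2 stood at 158, 209, 142 and 112 CPM in the Pdcd1-positive barcodes of the rhIL-7-hyFc 10 mg/kg, buffer, combination and rhIL-7-hyFc 1.25 mg/kg libraries, against 239, 338, 218 and 210 CPM in the Pdcd1-negative ones. Bcl2a1d stood at 57.5, 56.1, 47.9 and 53.1 CPM in Pdcd1-positive barcodes, against 6.70, 20.1, 18.1 and 12.6 CPM in Pdcd1-negative ones. Here 3 members were higher and 2 lower, where 12.2% of 10698 genes were called higher and 12.4% lower. The log2 difference was -0.81 for Bcl2 (SE 0.07, adjusted p = 0.0008), -0.40 for Bcl2l11 (SE 0.07, adjusted p = 0.00715), 0.34 for Bcl2l1 (SE 0.08, adjusted p = 0.0242), 1.28 for Bcl2a1b (SE 0.19, adjusted p = 0.00463) and 1.93 for Bcl2a1d (SE 0.25, adjusted p = 0.00298). Mcl1 was also lower when barcodes with macrophage RNA were left out (-0.31, adjusted p = 0.00917). In each library, Bcl2 in Pdcd1-positive barcodes of clonotypes seen once thus lay between its levels in Pdcd1-positive barcodes of large clones and in Pdcd1-negative barcodes of clonotypes seen once.

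**Figure D3:**
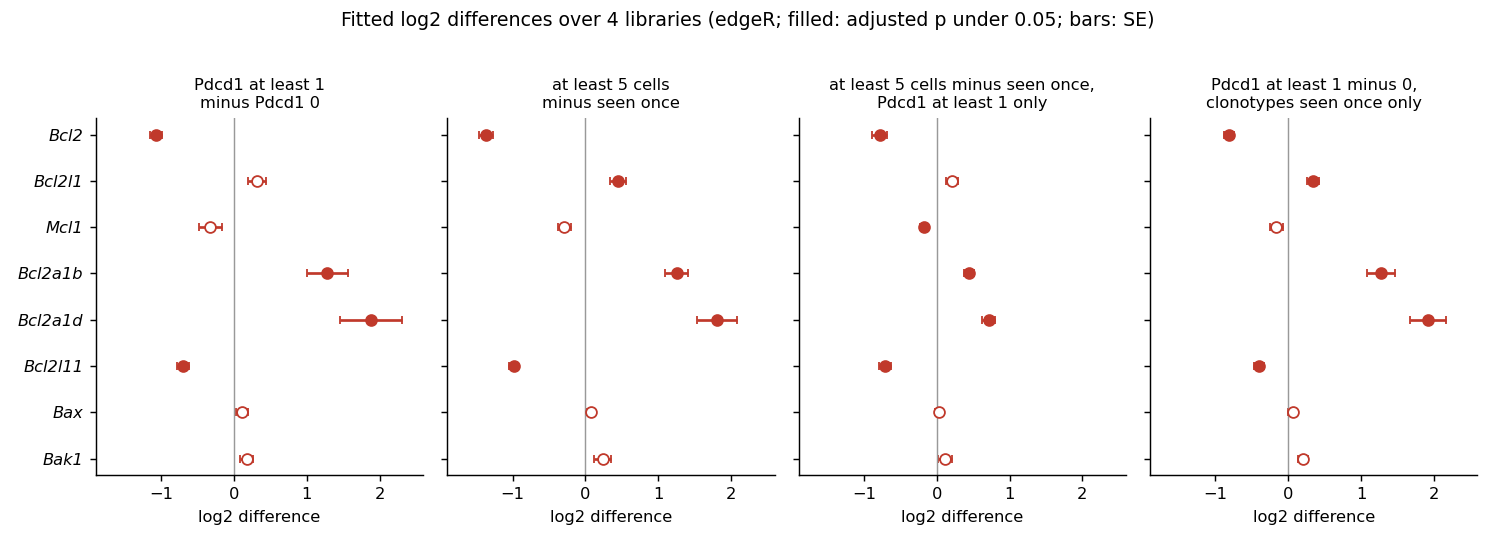
Fitted log2 difference of each member (x axis; points, with bars for the SE) from edgeR over 4 libraries, in 4 comparisons: Pdcd1-positive against Pdcd1-negative barcodes, clones of at least 5 cells against clonotypes seen once, the same among Pdcd1-positive barcodes, and the Pdcd1 states among clonotypes seen once. Filled points have an adjusted p under 0.05. Bcl2 and Bcl2l11 lie left of 0 and both A1 copies right of 0 in all 4 panels.

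The effect of Pdcd1 state was compared between the experiments by an interaction term in edgeR. None of the 12437 genes, members included, was called at an adjusted p under 0.05, and 970 had an unadjusted p under 0.05. Mcl1 had a log2 difference of 0.62 in experiment 2 minus experiment 1 (SE 0.19, adjusted p = 0.626) with all barcodes, but 0.14 without those with macrophage RNA and 0.16 without those with markers of other cells. With 2 libraries an experiment this does not show that the effects were alike.

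Cycling cells were more frequent among Pdcd1-positive barcodes, 29.9 to 45.5% of which had an Mki67 or Top2a UMI, against 15.6 to 23.8% of Pdcd1-negative ones. Without these cells the log2 difference by Pdcd1 state was -1.004 for Bcl2 (adjusted p = 0.00403), -0.56 for Bcl2l11 (adjusted p = 0.0132), 1.29 for Bcl2a1b (adjusted p = 0.0413) and 1.95 for Bcl2a1d (adjusted p = 0.0406). All 4 genes were called with and without cycling cells.

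Treatment was compared within each experiment, as 1 library against 1. These differences have no replicate check and no test, their intervals cover counting error only, and a member is said to differ where it was past 1.5-fold. Experiment 1 asks what rhIL-7-hyFc alone did. Over all CD8 T barcodes, 1 of the 8 members was higher and 2 were lower after rhIL-7-hyFc 10 mg/kg than after buffer, where 6.33% of 9067 genes were higher and 21.4% lower by that measure.

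Bcl2a1d stood at 26.4 CPM after rhIL-7-hyFc 10 mg/kg and 80.0 CPM after buffer (3.03-fold lower, 95% interval 2.85 to 3.21). Bcl2a1b stood at 34.8 CPM after rhIL-7-hyFc 10 mg/kg and 78.1 CPM after buffer (2.24-fold lower, 2.12 to 2.37). Bcl2l11 was at 127 CPM after rhIL-7-hyFc 10 mg/kg and 81.1 CPM after buffer (1.56-fold higher, 1.501 to 1.63). The pro-apoptotic BH3-only member and the A1 copies thus stood on opposite sides, and Bcl2, at 212 CPM after rhIL-7-hyFc 10 mg/kg and 143 CPM after buffer (1.48-fold higher, 1.43 to 1.52), lay just under the limit. With each clonotype counted once, the log2 ratio of Bcl2 was -0.30 in place of 0.56. Bcl2l1 (36.9 and 47.1 CPM), Mcl1 (125.2 and 115 CPM), Bax (156 and 175 CPM) and Bak1 (83.4 and 106 CPM) were inside it.

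How the libraries were scaled moved these values. With TMM factors in place of library totals, all log2 ratios of experiment 1 shifted by 0.27, and the genes past 1.5-fold divided into 1147 higher (12.7%) and 1191 lower (13.1%) in place of 574 and 1942. Bcl2 then passed the limit at a log2 ratio of 0.83, Bcl2l11 was at 0.91, Bcl2a1b at -0.88 and Bcl2a1d at -1.30, and Bax turned from a log2 ratio of -0.17 to 0.10.

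In experiment 1 the libraries also differed in how many barcodes were Pdcd1-positive, which supplied 24.1% of UMIs after rhIL-7-hyFc 10 mg/kg and 77.5% after buffer. Within Pdcd1-positive barcodes, 0 of the 8 members were past 1.5-fold, where 2.46% of genes were higher and 4.14% lower. There, Bcl2 was at 131 and 118 CPM (1.11-fold), Bcl2a1b at 90.1 and 82.4 CPM (1.09-fold), Bcl2a1d at 85.6 and 86.5 CPM (0.990-fold) and Bcl2l11 at 95.04 and 73.4 CPM (1.30-fold) after rhIL-7-hyFc 10 mg/kg and buffer. With the Pdcd1-positive share of UMIs held at 50.8% in both libraries, Bcl2 was 1.05-fold and Bcl2l11 1.28-fold after rhIL-7-hyFc 10 mg/kg over buffer, and Bcl2a1d, 1.53-fold lower, was the 1 member past the limit. Without barcodes with markers of other cells none was past it, with Bcl2a1d 1.24-fold lower and Bcl2 at 0.846-fold. The shares of UMIs were held equal for the members only, so no share of all genes can be set beside these counts.

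Within Pdcd1-negative barcodes, the A1 copies still differed. Bcl2a1d stood at 7.65 CPM after rhIL-7-hyFc 10 mg/kg and 57.7 CPM after buffer (7.55-fold lower, 6.59 to 8.65), and Bcl2a1b at 17.3 and 63.1 CPM (3.66-fold lower, 3.28 to 4.07). Bcl2l1 stood at 31.3 and 48.8 CPM (1.56-fold lower, 1.40 to 1.73), and 3 members were thus lower, where 4.91% of genes were higher and 28.7% lower. Bcl2, at 237 and 232 CPM, was 1.02-fold.

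In those Pdcd1-negative barcodes macrophage RNA was at 227 CPM after rhIL-7-hyFc 10 mg/kg and 2613 CPM after buffer. Without barcodes that held markers of other cells, Bcl2a1d was 5.55-fold and Bcl2a1b 2.84-fold lower after rhIL-7-hyFc 10 mg/kg. Without barcodes with macrophage RNA alone, they were 9.22-fold and 3.79-fold lower. In that set Bcl2l1 was 1.27-fold lower, inside the limit, where 4.52% of genes were higher and 25.0% lower, Mcl1 was 1.02-fold in place of 0.757-fold, and Bax 0.979-fold in place of 0.810-fold. The A1 differences stayed past the limit under both removals, and the Bcl2l1 difference did not without macrophage RNA.

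By clone class, the A1 copies differed in clonotypes seen once, where Bcl2a1d was 3.19-fold and Bcl2a1b 1.93-fold lower after rhIL-7-hyFc 10 mg/kg than after buffer (3.87% of genes higher and 13.2% lower). In clones of at least 5 cells no member was past 1.5-fold, where 3.04% of genes were higher and 3.18% lower. Bcl2 was 0.848-fold in clonotypes seen once and Bcl2l11 1.15-fold. The 1.48-fold of Bcl2 over all barcodes was thus not found inside a Pdcd1 state or among clonotypes seen once.

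Experiment 2 asks what TCE added to rhIL-7-hyFc. Over all CD8 T barcodes, 0 of the 8 members were past 1.5-fold between the combination and rhIL-7-hyFc 1.25 mg/kg, where 2.54% of 9308 genes were higher and 9.01% lower. Mcl1 was the farthest, at 428 CPM after the combination and 587 CPM after rhIL-7-hyFc 1.25 mg/kg (lower by 1.37-fold, 1.35 to 1.39). Bcl2l1 stood at 29.2 and 37.7 CPM (1.29-fold lower), Bcl2 at 136 and 113 CPM (1.20-fold), Bcl2a1b at 272 and 225 CPM (1.21-fold), Bcl2a1d at 61.8 and 52.2 CPM (1.18-fold) and Bcl2l11 at 151 and 130 CPM (1.16-fold). The effectors were nearest to 1, Bax at 209 and 218 CPM (0.959-fold) and Bak1 at 82.0 and 75.5 CPM (1.09-fold).

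Several of these values moved when barcodes with macrophage RNA were left out. That RNA was at 703 CPM after the combination and 2835 CPM after rhIL-7-hyFc 1.25 mg/kg, and its part was not tested. Without barcodes that held it, Mcl1 stood at 388 CPM after the combination and 393 CPM after rhIL-7-hyFc 1.25 mg/kg (ratio 0.988), Bcl2l1 was 0.982-fold and Bcl2 0.933-fold. The A1 copies moved the other way, Bcl2a1b to 1.35-fold (1.31 to 1.38) and Bcl2a1d to 1.38-fold (1.31 to 1.46). In that set 1.65% of all genes were higher and 2.71% lower. The Pdcd1-positive share of UMIs moved as well, from 70.5% to 66.0% after the combination and 74.4% to 56.3% after rhIL-7-hyFc 1.25 mg/kg. With that share held equal between the libraries, Bcl2a1b was 1.24-fold with all barcodes and 1.24-fold without macrophage RNA. Bcl2a1d was then 1.23-fold and 1.23-fold, Bcl2 1.16-fold and 1.01-fold, and Mcl1 0.730-fold and 1.01-fold. The part of the share was not tested.

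Within the Pdcd1-negative state the A1 copies passed the limit when barcodes with macrophage RNA were left out. Bcl2a1d stood at 20.02 CPM after the combination and 9.03 CPM after rhIL-7-hyFc 1.25 mg/kg (higher by 2.22-fold, 1.86 to 2.65), from 508 and 172 UMIs. Bcl2a1b stood at 130 CPM after the combination and 79.0 CPM after rhIL-7-hyFc 1.25 mg/kg (higher by 1.64-fold, 1.55 to 1.75). There 6.79% of all genes were higher and 3.92% lower. With all Pdcd1-negative barcodes the values were 1.16-fold and 1.27-fold, where 6.14% of genes were higher and 9.51% lower. The count of members thus differed with and without barcodes with macrophage RNA, and the part of that RNA was not tested. Among clonotypes seen once Bcl2a1b stood at 164 CPM after the combination and 127 CPM after rhIL-7-hyFc 1.25 mg/kg (ratio 1.30) with all barcodes, where 5.32% of genes were higher and 9.26% lower. Without those with macrophage RNA it stood at 160 and 96.9 CPM (1.65-fold higher, 1.56 to 1.74) and Bcl2a1d at 27.5 and 14.9 CPM (1.85-fold higher, 1.61 to 2.14), where 5.99% of genes were higher and 3.67% lower. Within Pdcd1-positive barcodes no member was past 1.5-fold, where 3.04% of genes were higher and 9.03% lower.

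**Figure D4:**
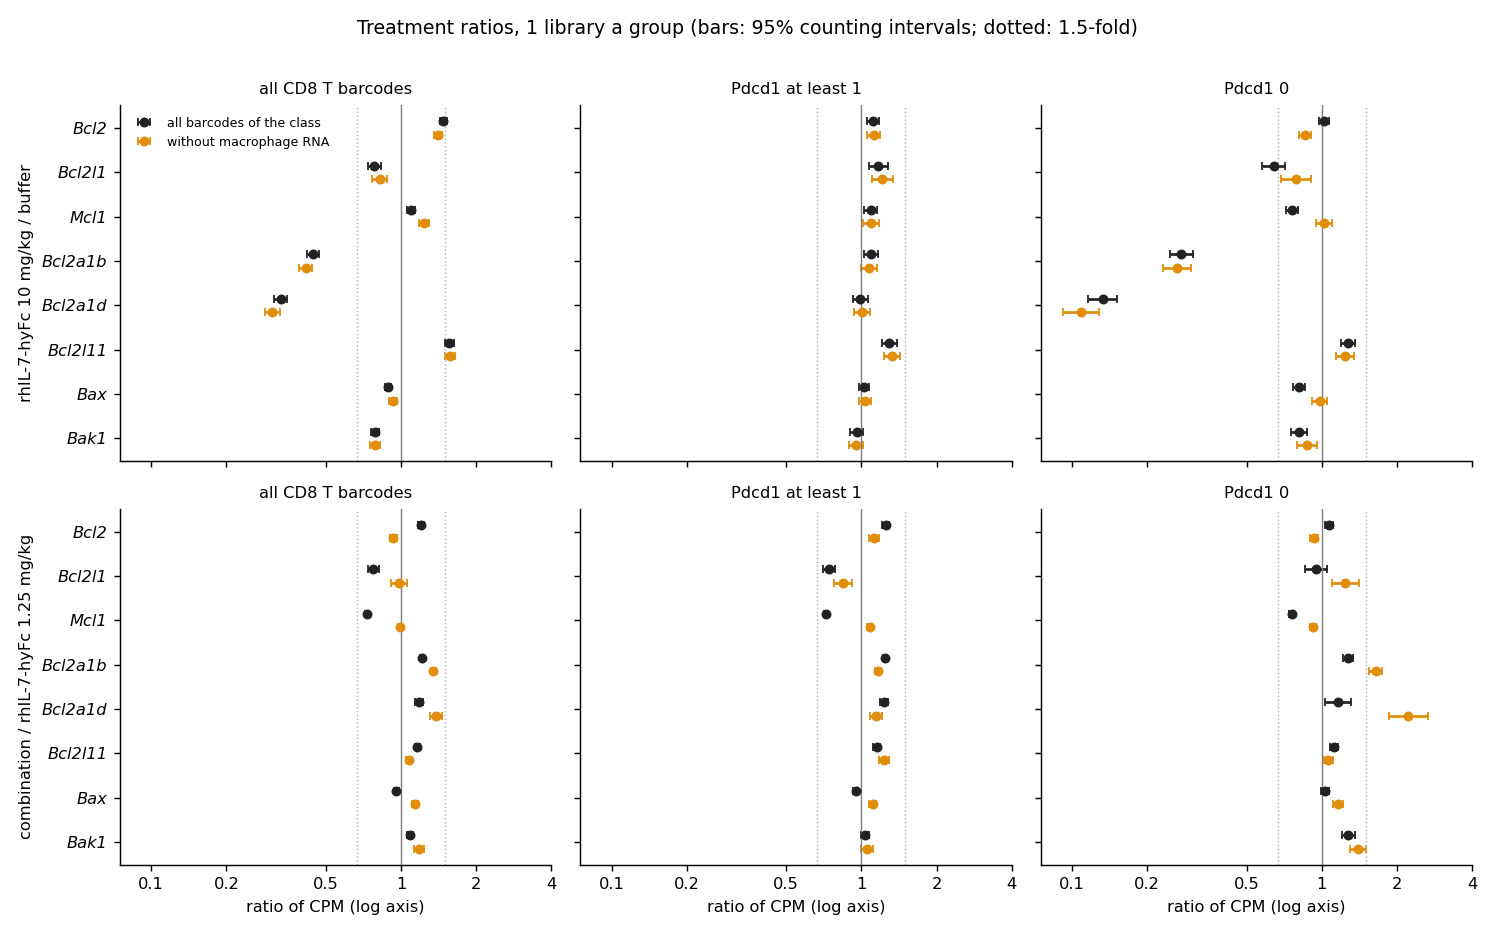
Ratio of each member's level (x axis, log scale, with exact conditional 95% intervals for counting error) after rhIL-7-hyFc 10 mg/kg over buffer (upper row) and after the combination over rhIL-7-hyFc 1.25 mg/kg (lower row), in all, Pdcd1-positive and Pdcd1-negative CD8 T barcodes. Black points use all barcodes and orange points leave out those with macrophage RNA. The A1 copies in Pdcd1-negative barcodes of experiment 1 lie farthest from 1, at 7.55-fold lower for Bcl2a1d with all barcodes and 9.22-fold lower without those with macrophage RNA.

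Of the A1 copies, there were 1.32 Bcl2a1b UMIs per Bcl2a1d UMI after rhIL-7-hyFc 10 mg/kg and 0.976 after buffer, and 4.39 after the combination and 4.30 after rhIL-7-hyFc 1.25 mg/kg. The first pair was counted with Cell Ranger 4.0.0 over 31053 genes and the second with 6.1.2 over 32285 genes. With dose, timing and isolation these differences cannot be told apart. Within Pdcd1-positive barcodes the ratio was 1.05, 0.953, 4.16 and 4.14, and within Pdcd1-negative barcodes 2.26, 1.09, 6.49 and 5.93. In experiment 1 it thus also differed between the treatments among Pdcd1-negative barcodes. Bcl2a1a, at 89, 398, 450 and 1470 UMIs in the same libraries, kept 8, 16, 13 and 13 UMIs once barcodes with markers of other cells were taken out. Its UMIs thus stood mostly in the barcodes that were removed.

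The other genes of the apoptosis pathway were read on 5 lists beside the members. Of 14 tested further BCL2 family genes, 0 were higher and 1 was lower in Pdcd1-positive barcodes, with a median log2 difference of 0.44 against -0.01 over all genes. The gene called was Bbc3, which encodes the BH3-only protein PUMA (log2 difference -1.17, SE 0.15, adjusted p = 0.0113). Over all genes 8.70% were higher and 9.88% lower by Pdcd1 state, and 18.9% and 19.9% by clone size, which are the shares to set beside the counts on these lists. By clone size 3 of 13 were higher and 1 lower. These were Bcl2l14 (log2 difference 1.75, adjusted p = 0.007), the A1 copy Bcl2a1c (1.33, 0.0406), Pmaip1, which encodes the BH3-only protein NOXA (1.07, 0.00185), and Bbc3 (-1.24, 0.00143). With barcodes with macrophage RNA left out, 16.2% of genes were higher and 18.1% lower by Pdcd1 state, and Pmaip1 also passed there (log2 difference 0.79, adjusted p = 0.0281), and by clone size Bcl2a1a also passed (1.75, 0.0172).

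Among the genes that act downstream at mitochondria, Apaf1, the scaffold of the apoptosome, was higher by clone size (log2 difference 0.50, adjusted p = 0.00613), and passed by Pdcd1 state when barcodes with macrophage RNA were left out (0.42, 0.0309). Endog, a mitochondrial nuclease, was lower in both (log2 difference -0.74, adjusted p = 0.0477 by Pdcd1 state, and -1.09, 0.00187 by clone size). None of 5 inhibitor of apoptosis genes passed by Pdcd1 state with all barcodes, and Birc5 was higher without those with macrophage RNA (log2 difference 1.01, adjusted p = 0.0235). By clone size 2 were higher (Birc5, also a mitotic gene, at 0.84, and Birc2 at 0.24) and 2 lower (Birc3 at -0.51 and Birc6 at -0.23), of which Birc2 did not pass without barcodes with macrophage RNA.

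Of 10 death receptor pathway genes, 3 were lower and 0 higher in Pdcd1-positive barcodes. Tnfrsf10b, a receptor for TRAIL, had a log2 difference of -1.73 (adjusted p = 0.00906), Fas one of -1.42 (adjusted p = 0.00688) and Ripk1 one of -0.38 (adjusted p = 0.0318). Tnfrsf1a, the TNF receptor, was also lower (-0.92, adjusted p = 0.00342) and Fasl higher (0.45, adjusted p = 0.0129) without barcodes with macrophage RNA. By clone size 1 was higher (Fasl, the ligand of Fas, at 0.49) and 3 lower, among them Tnfrsf10b at -2.47 and Fas at -2.07, and Tnfrsf1a was added to these at -0.90 (adjusted p = 0.00566) without barcodes with macrophage RNA. Of 12 upstream regulators, 4 were lower and 0 higher by Pdcd1 state, among them the survival kinase genes Pim2 (log2 difference -1.36, adjusted p = 0.00795) and Pim1 (-0.70, 0.0375) and Foxo3, a transcription factor gene known to drive Bcl2l11 (-0.75, 0.022). Foxo1 was also lower (-0.68, adjusted p = 0.00753) and Jak3 higher (0.48, adjusted p = 0.0395) without barcodes with macrophage RNA. By clone size 5 were lower, with Pim2 at -1.85, Foxo1 at -0.92 and Pim1 at -0.89 the farthest, and 1 higher.

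Between treatments the same lists were read against 6.33% of genes past 1.5-fold higher and 21.4% lower in experiment 1, and 2.54% and 9.01% in experiment 2. Among 8 measured further BCL2 family genes in experiment 1, Bbc3 was higher after rhIL-7-hyFc 10 mg/kg (26.1 CPM, against 15.4 CPM after buffer) and 3 were lower, Bcl2l14 (0.376 against 12.5 CPM), Bcl2a1a (1.46 against 9.67 CPM) and Pmaip1 (19.0 against 58.8 CPM). Without barcodes with markers of other cells 6 of these genes were measured, and Pmaip1 alone was lower past 1.5-fold (17.3 against 46.4 CPM). The share of all genes in that set is not given. Fas stood at 34.4 CPM after rhIL-7-hyFc 10 mg/kg and 15.2 CPM after buffer (2.27-fold higher), and Tnfrsf1a was past 1.5-fold higher, at 38.4 and 24.0 CPM, once barcodes with macrophage RNA were left out. Within the Pdcd1 states Fas and Bbc3 were inside 1.5-fold. Fas stood at 13.2 and 10.8 CPM in Pdcd1-positive and 41.1 and 30.3 CPM in Pdcd1-negative barcodes. Bbc3 stood at 11 and 12.3 CPM, and at 30.9 and 25.8 CPM, in the same states. Bcl2l14 and Pmaip1 stayed past 1.5-fold lower in both states, and Bcl2a1a in Pdcd1-negative barcodes. In experiment 2 the genes past 1.5-fold on these lists were Bcl2a1a (2.72-fold lower after the combination), Pmaip1 (1.71-fold lower) and Tnfrsf1a at 37.0 CPM after the combination and 85.6 CPM after rhIL-7-hyFc 1.25 mg/kg (lower by 2.31-fold). Without barcodes with macrophage RNA none of these 3 was past 1.5-fold, with Pmaip1 lower by 1.13-fold and Tnfrsf1a by 1.25-fold, and Bcl2a1a was under the limit of 5 CPM in both libraries. There Tnfrsf10b, Tnfrsf1b and Pim2 were past 1.5-fold, at 1.52-, 1.52- and 1.62-fold lower after the combination.

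The genes whose levels most resembled each member's were sought among 3042 genes across 11 groups of barcodes in experiment 1 and 12 in experiment 2, formed by library, Pdcd1 state and clone class. These groups share libraries and depth, and the values are descriptions. Bcl2 was most like Gimap6 (Pearson r 0.92 in experiment 1 and 0.96 in experiment 2), Fam189b (0.93 and 0.94) and Elf1 (0.91 and 0.95). Bcl2a1d was most like Tnfrsf4 (0.96 and 0.98), Ptms (0.95 and 0.99) and Cxcr6 (0.98 and 0.96), and Bcl2a1b like Bcl2a1d (0.96 and 0.96), Bhlhe40 (0.93 and 0.98) and Cxcr6 (0.94 and 0.95), where the part of reads that the copies share in the first pair was not tested.

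Bcl2l11 was most like Dennd2d (0.91 and 0.87), Etnk1 (0.90 and 0.88) and Ndufa4 (0.82 and 0.94), and Bcl2l1 like Dok2 (0.91 and 0.84), Tspo (0.97 and 0.77) and Anxa1 (0.83 and 0.81). Mcl1 was most like Sdc3 (0.89 and 0.95), Myd88 (0.91 and 0.92) and Picalm (0.90 and 0.88), and, without barcodes with macrophage RNA, like Slc38a2 (0.93 and 0.90). Without them Bcl2l1 was most like Atp2b4 (0.88 and 0.87), Fasl (0.85 and 0.83) and Fmnl1 (0.88 and 0.76), Bax like Ostf1 (0.93 and 0.85), and Bak1 like Ndufa5 (0.90 and 0.89), and none of the 3 leading genes of these members was among those found with all barcodes. With all barcodes Bax was most like Pttg1 (0.94 and 0.89) and Zcrb1 (0.94 and 0.89), and Bak1 like Maea (0.88 and 0.86). Without barcodes with macrophage RNA, Bcl2 kept Gimap6, Bcl2l11 kept Ndufa4 and Bcl2a1d kept Ptms among the 3 leading genes. The others were then Ly9 and Cxcr4 for Bcl2, Dnaja2 and Srpk1 for Bcl2l11, and Bcl2a1b and Lag3 for Bcl2a1d. Bcl2a1b kept Bcl2a1d and Bhlhe40, with Ptms in place of Cxcr6. Among the members themselves, Bcl2 and Bcl2l11 had r 0.41 in experiment 1 and 0.90 in experiment 2, and Bcl2 and Bcl2a1d had r -0.61 and -0.86. Bcl2 and Mcl1 had r 0.54 and -0.13 with all barcodes, and 0.84 and 0.83 without those that held macrophage RNA.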

How the data were processed

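UMI counts per gene and barcode were made by the authors with Cell Ranger, version 4.0.0 for experiment 1 and 6.1.2 for experiment 2, per the file headers. The submitters' processing notes name GRCm38 as the genome build. Clonotypes are those of the deposited receptor tables, joined to the RNA libraries by barcode.

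Barcodes with at least 500 genes and under 10% mitochondrial UMIs were kept, and no doublet caller was run. CD8 T barcodes were gated on CD8 and CD3 UMIs, and UMIs were summed per library and class and divided by the class's total UMIs to give CPM. Samples were grouped by title. The states and clone classes were tested with edgeR 4.0.16 (R 4.3.3) by the quasi-likelihood method with TMM factors, the library as a block and Benjamini-Hochberg adjustment at 0.05. SEs were derived from the F statistic, and the procedure was run on simulated counts with known changes. By Pdcd1 state it recovered 2.04% of genes changed 1.5-fold and 34.3% of those changed 2-fold. By clone size it recovered 30.9% and 73.2%. Most 1.5-fold changes were thus missed in both simulations, so a member that did not pass may still differ. Treatment ratios were limited to genes at 5 CPM or more in either library, with exact Poisson intervals for levels and exact conditional binomial intervals for ratios (scipy 1.17.1). The median log2 CPM ratio of all genes between classes was -0.07 to 0.16 over libraries. Promoters and transcripts were aligned with Biopython 1.88. DESeq2 1.42.0 was an alternative, as were other gates, filters, scalings and weights.

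The members and all gene lists were chosen with earlier results of these data known. Named genes are the members, up to 3 called genes per list and comparison with the largest difference, and the 3 genes most like each member; from those the text leaves some out, and some genes of the mitochondrial list are not reported here. Removing barcodes with markers of other cells, and the tests within classes, were chosen after seeing the data.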

Additional observations from a re-analysis of the deposited data

How the results depend on the processing

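The count of members called by Pdcd1 state, 4 with all 4 libraries, ranged from 1 to 5 when each library was left out in turn, and that by clone size, 5, from 4 to 6. The rhIL-7-hyFc 1.25 mg/kg library moved the count of all genes most, to 51 higher and 122 lower by Pdcd1 state in place of 1082 and 1229, and to 1234 and 1364 by clone size in place of 2259 and 2384. By Pdcd1 state the counts were 251 and 192 without rhIL-7-hyFc 10 mg/kg and 512 and 395 without the combination, but rose to 1691 and 1744 without buffer. By clone size they were 1724 and 1668 without rhIL-7-hyFc 10 mg/kg, 1928 and 1849 without the combination and 1794 and 1843 without buffer. Without the replicate block, that is with no library term, 1 member was called by Pdcd1 state and 3 by clone size, with 407 genes higher and 328 lower by Pdcd1 state and 799 and 803 by clone size. The block is the library, which pairs the classes within it. With the class read from thinned barcodes 2 members were called (473 genes higher and 601 lower). DESeq2 called 1693 genes higher and 1863 lower by Pdcd1 state, the stricter gate 1718 and 1975, and removal of barcodes with markers of other cells 2583 and 2645. The cause of these shifts was not tested.

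For treatment, the 3 members past 1.5-fold in experiment 1 became 1 with the UMI shares of the Pdcd1 states held equal, and 0 when barcodes with markers of other cells were also left out. Those shares were held equal for the members only, so no share of all genes stands beside these counts. Bcl2 turned from a log2 ratio of 0.56 to -0.30 with each clonotype counted once, and was 0.15 as a mean of per-cell CPM. In experiment 2, the 0 members past 1.5-fold within Pdcd1-negative barcodes and within clonotypes seen once became 2 and 2 without macrophage RNA, and 2 and 2 without markers of other cells. Without macrophage RNA 6.79% of genes were higher and 3.92% lower within Pdcd1-negative barcodes, and 5.99% and 3.67% within clonotypes seen once. The shares of all genes without markers of other cells are not given. TMM factors shifted log2 ratios there by -0.06.

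The uncalled differences of the Pdcd1 effect between experiments changed sign without macrophage RNA for Bcl2l1 (-0.0925), Bcl2a1b (0.0784), Bcl2a1d (0.209) and Bax (-0.0457), and without markers of other cells for Bcl2 (0.102), Bcl2l1 (-0.0884) and Bax (-0.0113). Of the other fitted values for single members, 229 kept their direction and their side of the threshold, 11 newly passed it and 17 no longer did.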
